A study of Mus musculus with 8 samples.

Results

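Type I interferons bind the receptor IFNAR, whose kinases JAK1 and TYK2 activate transcription factors. These enter the nucleus and bind interferon-stimulated response elements (ISRE) in the promoters of interferon-stimulated genes. Plasmacytoid dendritic cells (pDC) are known for making large amounts of type I interferon on sensing viral nucleic acids, and conventional dendritic cells (cDC) for presenting antigen to T cells. Both kinds of cell respond to interferon. The genes described here are 45 interferon-stimulated genes that stand alone or in small groups, outside the large Ifit, Oas, GTPase, Gbp, Ifi200, Irf and Pml groups. They were found by mapping the Entrez Gene IDs of the count table to symbols, and they are 45 of the 27179 genes in the table. Their products fall into 7 roles: conjugation of the ubiquitin-like protein ISG15 (6 genes), sensing and processing of nucleic acids (9), antiviral effectors at membranes or on replication (8), mitochondrial or cell death proteins (4), TRIM proteins (5), surface and secreted proteins (4) and others (9).

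RNA was sequenced from pDC and cDC sorted from the spleens of leukemia-bearing C57BL/6 mice. The mice had received panobinostat, an inhibitor of histone deacetylases, or vehicle for 2 days. This gave 4 groups of 2 libraries: pDC under vehicle, pDC under panobinostat, cDC under vehicle and cDC under panobinostat. Each library came from a pool of 3 to 6 mice, so the values do not show the spread between single animals. All 4 groups carried leukemia, and no group without it was analysed here. Neither the kind of leukemia nor the dose of the drug is stated in the labels. The protocol text mentions sorting of leukemia cells, although the titles and the cell type labels name dendritic cells.

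Library totals ranged from 13124861 to 20657429 counts. Levels are in CPM, read counts scaled to library size with a correction for composition (TMM). Values after ± are standard deviations over 2 libraries (SD, n = 2) for CPM and standard errors for log2 fold changes. A gene is called where edgeR's quasi-likelihood test gives an adjusted p under 0.05 over the 14238 genes tested, and all 45 genes were among those tested. The second pDC panobinostat library stood apart. It had counts in 10745 genes, against 14927 in its replicate and 16109 to 19950 in the other 6 libraries. Its log2 CPM over the 45 genes correlated with that of its replicate at r = 0.823, against 0.966 to 0.98 in the other groups. Between these 2 libraries 14 of the 45 genes differed by more than 1 log2 unit, against 54.1% of all genes. In the other groups 3, 1 and 1 of the 45 did so. Beside the larger changes in pDC, the log2 fold change without this library is therefore given too. It rests on 1 library in that group.

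Defining markers separated the sorts as labelled. The 9 pDC markers (Siglech, Ccr9, Tcf4, Ly6d, Klk1, Cox6a2, Runx2, Spib and Pacsin1) summed to 11500 to 17000 CPM in the pDC libraries and to 133 to 228 in the cDC libraries. The cDC factor Zbtb46 stood at 137 to 200 CPM in cDC and at 2.37 to 19.6 in pDC. The summed cDC list did not separate the sorts, at 1770 to 2380 CPM in cDC and 1790 to 3430 in pDC, because Cd209a and Clec10a were higher in every pDC library than in any cDC library. In the cDC libraries, the 8 NK cell markers summed to 93.9 and 139 CPM under vehicle and to 146 and 380 under panobinostat. Klrk1 alone was at 91.4 and 105, then at 138 and 173. In the second cDC panobinostat library Ncr1, Gzma and Nkg7 stood at 43.1, 50.5 and 58.6 CPM. The sums for the 7 B cell markers were 134 and 439, then 108 and 263. In pDC the NK list stood at 23.8 and 44.9 CPM under vehicle and at 185 and 487 under panobinostat, almost all of it Klrk1, while Ncr1, Klrb1c and Gzma were at 0 in the second panobinostat library. The monocyte list stood at 2090 and 3840 CPM in pDC under vehicle and at 3560 and 6930 under panobinostat, nearly all from Ly6c2 and Ccr2. Neutrophil markers summed to at most 6.42 CPM in any library, with Ly6g at 0 in every cDC library. The macrophage list stood at 0 to 36.1 CPM in pDC and 308 to 480 in cDC, and the progenitor list at 0 to 38 and 254 to 393. Kit alone was at 248 to 383 CPM in cDC. The T cell list stood at 1070 and 1660 CPM in pDC under vehicle and at 481 and 722 under panobinostat, mostly from Cd4 and Cd8b1. In cDC it stood at 112 and 119, then at 134 and 152. The part of these cells in the results below was not tested.

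Promoters were read from RefSeq windows on GRCm38.p6, from 250 bases before to 50 bases after an annotated transcript start. A window was found for 35 of the 45 genes. An ISRE-like match (GAAA, any 2 bases, GAAA, on either strand) lay in 14 of these 35 (40%) and in 1079 of 27025 genes with a window (3.99%). A GAS-like match, TTCNNNGAA on either strand, lay in 8 of 35 (22.9%), against 9.55% of all. Below are stretches with the ISRE-like match in capitals. The first 5 belong to genes called in at least 1 comparison. All are read 5′ to 3′ on the gene's strand, so a match on the other strand reads TTTC, 2 bases, TTTC.
Ifitm2, chr7:140955962-140956052, minus strand: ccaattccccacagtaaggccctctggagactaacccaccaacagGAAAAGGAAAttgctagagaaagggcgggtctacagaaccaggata
Lgals9, chr11:78984925-78985024, minus strand: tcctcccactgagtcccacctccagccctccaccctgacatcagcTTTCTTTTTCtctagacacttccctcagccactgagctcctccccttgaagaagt
Trim30d, chr7:104507850-104507935, minus strand: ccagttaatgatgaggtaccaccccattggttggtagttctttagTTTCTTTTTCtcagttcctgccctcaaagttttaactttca
Trim30a, chr7:104465194-104465274, minus strand: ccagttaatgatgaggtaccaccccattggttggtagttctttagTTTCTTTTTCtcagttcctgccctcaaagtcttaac
Apobec3, chr15:79892223-79892322, plus strand: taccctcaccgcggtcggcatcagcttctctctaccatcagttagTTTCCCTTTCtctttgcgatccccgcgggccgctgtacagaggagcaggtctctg

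The stretches of Ifitm2, Lgals9, Trim30d and Trim30a end at the base before the transcript start of their window, and that of Apobec3 ends 85 bases before it. For Ifitm2, Trim30d and Apobec3 this start lies within the gene's annotated span and is not its outermost one. Trim30a and Trim30d are near copies of each other, and their stretches were identical at 80 of the 81 bases compared. The next 3 stretches were chosen after values had been seen, and each holds more than 1 match. That of Isg15 has 3 overlapping matches that share bases, and that of Ddx60 has 2 separate ones. That of Trim21 has 2 overlapping ones that begin 13 bases after the transcript start of its window. The windows of Ifitm3 and Lgals9 also hold more than 1 match. Ifitm3 is not printed, and 1 match of Lgals9 lies after the transcript start, outside its stretch.
Isg15, chr4:156200850-156200921, minus strand: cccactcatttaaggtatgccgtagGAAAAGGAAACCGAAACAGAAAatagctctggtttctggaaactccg
Ddx60, chr8:61928009-61928086, plus strand: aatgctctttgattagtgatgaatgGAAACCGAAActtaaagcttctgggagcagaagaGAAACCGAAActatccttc
Trim21, chr7:102565454-102565469, minus strand: GAAACTGAAAGTGAAA

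Of the 14 genes with a match, 12 had a log2 fold change for panobinostat above 0 in pDC and 11 in cDC, with medians of 0.44 and 0.38. Of the 21 genes whose window held none, 12 and 18 did, with medians of 0.24 and 0.29. The 10 genes without a window had the highest medians, 0.49 and 0.54, and 8 and 10 of them lay above 0. Whether a match goes with the change was not tested. These are descriptions of letters in a window, not of bound sites.

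The first comparison asked how panobinostat changed these genes in pDC. Ifi27, a small protein of mitochondrial and nuclear membranes, rose 4.18-fold and was the only one of the 45 called. Of all 14238 genes, 0.0913% were called, 0.014% higher and 0.0773% lower. Most of the other genes lay above 0 without passing the test: 32 of the 45 had a positive log2 fold change (71.1%), against 44% of all genes, and their median was 0.34 against -0.14. For 18 of the 45 the 2 treated libraries lay above the 2 untreated ones, a pattern that 15.7% of all genes showed. In 4 of them, Adar, Pnpt1, Znfx1 and Trim21, both lay below, as in 26.5% of all genes. In bulk RNA of this kind a gene's lower level in a group and fewer cells that express it cannot be told apart.

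At an unadjusted p under 0.05 edgeR picked 12 of the 45 genes, and 14.9% of all genes. Leaving out 1 pDC panobinostat library keeps 1 in that group, so only effect sizes are given. Without the second one the log2 fold changes were 1.89 (Ifi27), 1.75 (Rtp4), -2.85 (Trim21) and -1.60 (Znfx1). The median was then 0.19, and 30 of the 45 lay above 0. Without the first one the same genes stood, in that order, at 2.17, 1.36, -2.64 and -5.31. No member was called in the fit on the 4 pDC libraries alone or with the replicate number as a block. With the block edgeR gave Ifi27 an adjusted p of 0.0718. Over the 15 alternatives the log2 fold change of Ifi27 ran from 1.87 to 2.17. In those that keep 2 libraries per group its adjusted p ran from 1.32e-21 (DESeq2) to 0.973 (edgeR on the 4 pDC libraries alone). It was called there with library size only, without the filter and with DESeq2. Whether it was called also changed with the library left out.

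In cDC most of these genes stood slightly higher under panobinostat, and edgeR called none of them and 0% of all genes. A positive log2 fold change was found for 39 of the 45 (86.7%), against 50.4% of all genes, and the median was 0.38 against 0. The 2 treated libraries lay above the 2 untreated ones for 27 genes, against 22.2% of all genes, and below them for Uba7, Plscr1 and Phf11b, against 18.8%. At an unadjusted p under 0.05 edgeR picked 3 of the 45, Ifi27, Ifi44 and Lgals9, and 1.45% of all genes. DESeq2 called Ifi27 alone, among 0.105% of all genes, and limma-voom called none. Over the 8 fits that leave out 1 library the median ran from 0.28 to 0.49. The treatment comparisons in pDC and cDC share no library, but their tests share the spread per gene that edgeR estimated over all 8 libraries.

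For 10 genes the panobinostat libraries lay above the vehicle libraries in both cell types: Usp18, Mx1, Rsad2, Ifitm3, Rtp4, Ifi27, Ifi27l2a, Xaf1, Lgals9 and Phf11d. None lay below in both. Adar and Trim21 lay below vehicle in pDC and above it in cDC. Another 18 genes were apart in cDC only, 10 in pDC only, and 5 overlapped in both. These counts compare libraries without regard to their numbers. Of the 5 genes that overlapped in both (Herc6, Eif2ak2, Samhd1, Ly6a and Helz2), Samhd1 and Ly6a were higher under panobinostat in all 4 same-numbered pairs. Uba7, apart in cDC only, was lower under panobinostat in all 4. A positive log2 fold change in both cell types was found for 28 of the 45 (62.2%), against 24.1% of all genes. For the joint patterns of overlap above, the share of all genes was not counted, so they are descriptions of the 45 alone.

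**Figure D1:**
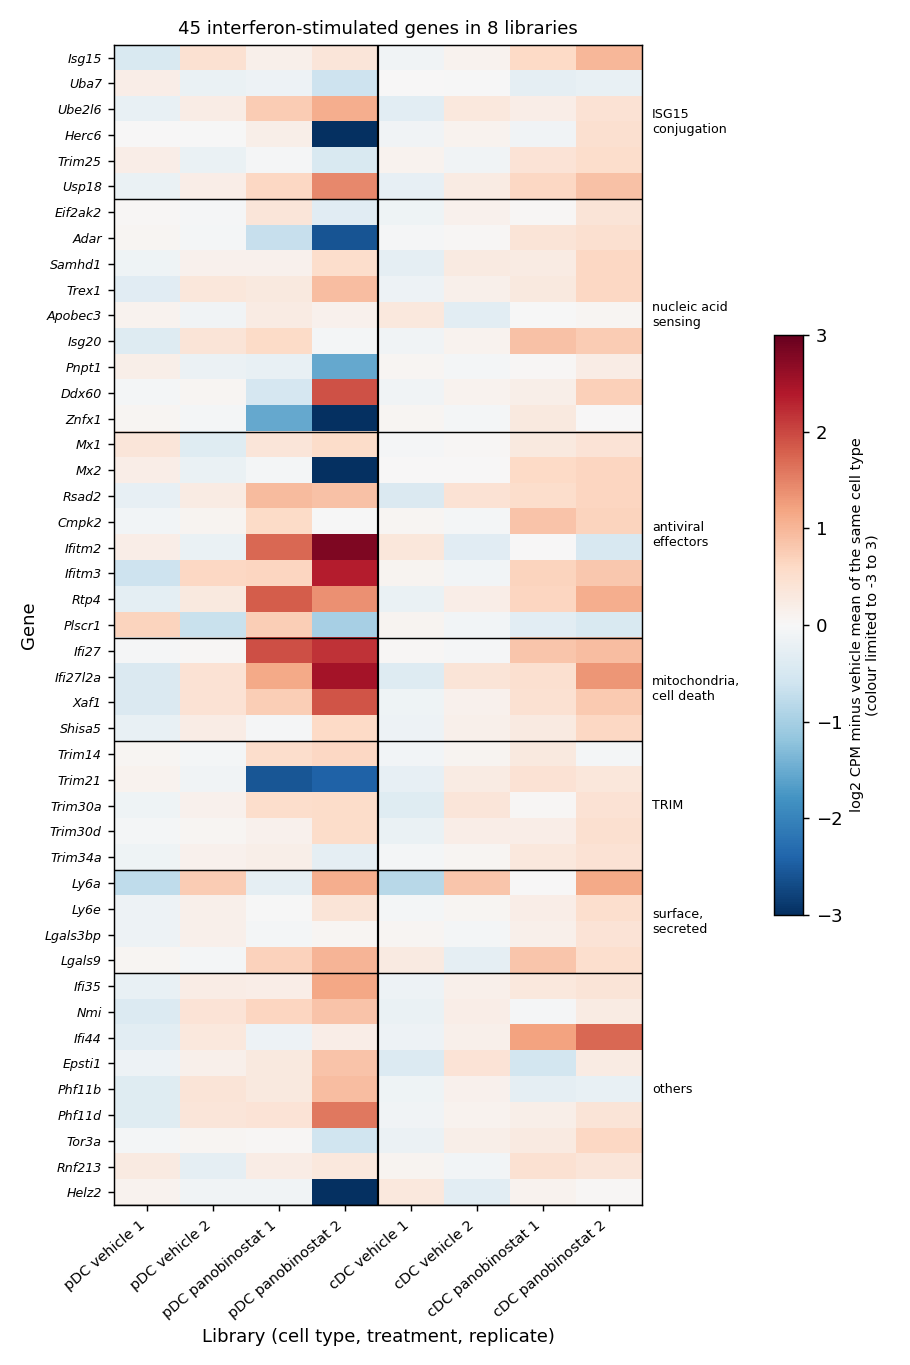
Heat map of log2 CPM minus the vehicle mean of the same cell type, for the 45 genes (rows, by role) in the 8 libraries (columns), with red above and blue below vehicle and the colour limited to -3 to 3. The second pDC panobinostat library holds the deepest blue (Helz2, Mx2, Znfx1, Herc6) and the deepest red (Ifitm2, Ifi27l2a, Ifitm3), and the 2 cDC panobinostat libraries are pale red in most rows.

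The test of the difference between the 2 treatment effects, pDC minus cDC, called none of the 45 genes with edgeR and 0.00702% of all genes. Ifi27 had the smallest p, with an effect larger in pDC by 1.18 ± 0.24 on the log2 scale (adjusted p = 0.359). The next were Ifitm2 (2.62 ± 0.61, adjusted p = 0.379), Trim21 (-3.10 ± 0.90, 0.443), Ifi44 (-1.5 ± 0.52, 0.549), Adar (-1.78 ± 0.77, 0.660) and Znfx1 (-2.59 ± 1.33, 0.724). At an unadjusted p under 0.05 edgeR picked the first 4 of these, and 7.77% of all genes. DESeq2 called Ifi27, Ifitm2 and Trim21, and limma-voom called none. The share of all genes that DESeq2 called here is not given, so its calls are not set against a background. Without the second pDC panobinostat library, which leaves 1 in its group, the value of Znfx1 was -1.75, and without the first one -5.47.

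The mitochondrial and cell death genes had medians of 1.64 in pDC and 0.76 in cDC, the highest of the 7 role medians in each. Ifi27 (Entrez Gene 52668, chr12:103434189-103440245) was measured at 43.2 and 45 CPM in pDC under vehicle and at 169 and 199 under panobinostat. In cDC it stood at 61.6 and 58.3, then at 108 and 114. The groups were far apart in both cell types and replicates lay close together, with an increase of 2.06 ± 0.18 log2 units in pDC (adjusted p = 0.0458) and a log2 fold change of 0.88 ± 0.17 in cDC (adjusted p = 1). Its span in the RefSeq annotation lies within that of Ifi27l2a (chr12:103433873-103443680), a relative of the same family. The 2 transcripts share none of their 50-base words, but which reads the authors' counting gave to each is not known.

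Ifi27l2a stood at 173 and 318 CPM in pDC under vehicle and at 520 and 1330 under panobinostat, a log2 fold change of 1.91 ± 0.59 (adjusted p = 0.241) that was 1.02 without the second panobinostat library. In cDC its libraries were at 36.9 and 62.6, then at 66.9 and 120 (0.91 ± 0.57, adjusted p = 1). All panobinostat libraries lay above the vehicle libraries of their cell type, and the second replicate was the higher one in each group. Xaf1, which binds the apoptosis inhibitor XIAP, went from 17.8 and 32.5 CPM to 40.4 and 89.8 in pDC (1.37 ± 0.50, adjusted p = 0.293), with a log2 fold change of 0.62 without that library. In cDC it stood at 18.5 and 22.2, then at 28.0 and 35.0. Shisa5, a pro-apoptotic protein of the endoplasmic reticulum, overlapped between treatments in pDC (570 ± 120 CPM under vehicle and 703 ± 216 under panobinostat) and did not overlap in cDC (339 ± 50.4 and 466 ± 81.4). It was not called in either.

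Among antiviral effectors, Ifitm2 and Ifitm3 encode membrane proteins that block the entry of viruses into cells. Ifitm2 was low in pDC under vehicle, at 10.9 and 8.16 CPM, and stood at 31.7 and 66.8 under panobinostat (2.36 ± 0.45, adjusted p = 0.143), and the log2 fold change was 1.68 without the second of these. In cDC it was at 231 and 146 under vehicle and at 185 and 130 under panobinostat, so the treatments overlapped there (-0.26 ± 0.43). Ifitm3 was at 30.5 and 72.5 CPM in pDC under vehicle and at 73.5 and 240 under panobinostat (1.61 ± 0.62, adjusted p = 0.305). The lower panobinostat library thus lay just above the higher vehicle library, and without the second one the log2 fold change was 0.45. In cDC Ifitm3 stood at 248 and 220, then at 371 and 411 (0.74 ± 0.60, adjusted p = 1). The transcripts of Ifitm2 and Ifitm3 share 3.3% and 3.18% of their 50-base words, so a small share of reads could be split between them.

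Rtp4, a receptor transporter protein with antiviral activity, was near the floor in pDC, at 2.47 and 3.78 CPM under vehicle and 11 and 8.08 under panobinostat. These values rest on 49, 70, 221 and 87 reads, and the log2 fold change was 1.61 ± 0.40 (adjusted p = 0.194). In cDC it stood at 31.8 and 41.7 CPM, then at 57.3 and 77.3 (0.87 ± 0.39, adjusted p = 1). Rsad2, the antiviral enzyme viperin, was at 13 and 18.4 CPM in pDC under vehicle and at 30.2 and 28.3 under panobinostat (0.90 ± 0.45, adjusted p = 0.399). Its cDC libraries were at 9.46 and 17.2, then at 18.5 and 20.1, with no overlap in either cell type. Cmpk2, a mitochondrial nucleotide kinase and the neighbour of Rsad2, overlapped in pDC (33.1 ± 2.44 and 41.3 ± 11.9) and was at 23.5 and 21.5, then at 40.8 and 35.5 CPM in cDC (0.76 ± 0.32, adjusted p = 1).

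Mx1 and Mx2 encode dynamin-like GTPases against viruses, and both are known to be defective in C57BL/6 mice. Mx1 was at 51.8 and 31.1 CPM in pDC under vehicle and at 51.8 and 58.7 under panobinostat (0.41 ± 0.30). The closest pair of libraries from the 2 groups therefore agreed to 3 digits. In cDC Mx1 was at 45.4 and 48.0, then at 57.5 and 61.7. Mx2 stood at 29.3 and 21.9 CPM in pDC under vehicle, at 24.3 in the first panobinostat library and at 1.30 in the second (14 reads), and its log2 fold change of -0.99 was -0.12 without the second. Mx2 in cDC was at 8.62 and 8.63, then at 13.1 and 13.6. Plscr1, a phospholipid scramblase, overlapped between treatments in pDC (12.9 ± 7.97 and 12.5 ± 9.60 CPM) and lay lower under panobinostat in cDC (53.5 ± 3.86 and 41.0 ± 3.05). No gene of this role was called in either treatment comparison.

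**Figure D2:**
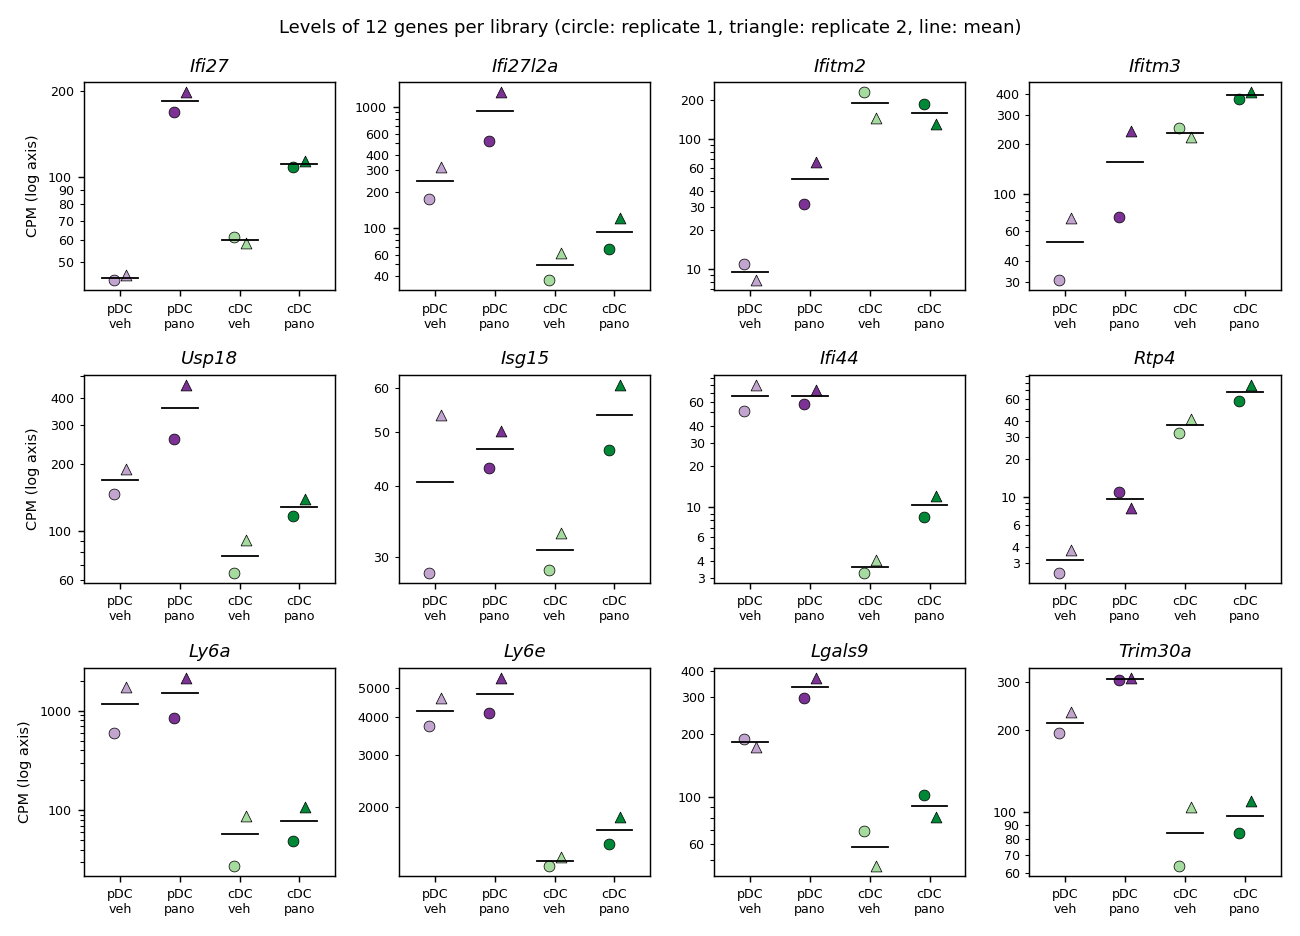
CPM (log axis) of 12 of the genes in each library, by cell type and treatment, with a circle for replicate 1, a triangle for replicate 2 and a line at the mean of the 2. Ifi27 shows tight replicates and a gap between treatments in both cell types, Ifitm2 and Rtp4 lie far lower in pDC than in cDC, and Ly6a differs more between replicates than between treatments.

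In the ISG15 pathway, the deconjugase and the conjugating enzyme stood higher under panobinostat in pDC, and ISG15 itself did so in cDC. Isg15 was measured at 28.0 and 53.6 CPM in pDC under vehicle and at 43.1 and 50.3 under panobinostat, so the treated libraries lay between the untreated ones. In cDC it stood at 28.4 and 33.1, then at 46.4 and 60.7 (0.80 ± 0.38, adjusted p = 1), with no overlap. Usp18 removes ISG15 from proteins and damps signalling at IFNAR. It was at 146 and 191 CPM in pDC under vehicle and at 260 and 457 under panobinostat (1.09 ± 0.33, adjusted p = 0.239), and the log2 fold change was 0.57 without the second of these. In cDC it stood at 64.1 and 90.3, then at 117 and 139 (0.73 ± 0.33, adjusted p = 1). Ube2l6, the conjugating enzyme, was at 88.3 and 120 CPM in pDC, then at 177 and 218 (0.92 ± 0.28, adjusted p = 0.242; 0.71 without the second panobinostat library), and overlapped in cDC.

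Of the other 3 genes of the ISG15 role, none was apart in pDC. Uba7, the activating enzyme, overlapped in pDC (157 ± 31.0 and 121 ± 28.3 CPM) and lay lower under panobinostat in cDC (153 ± 3.10 and 128 ± 3.45). Herc6, the main mouse ligase for ISG15, stood at 48.7, 48.4 and 55.1 CPM in the first 3 pDC libraries and at 5.67 in the second panobinostat library, with a log2 fold change of -0.67 that was 0.13 without that library. Trim25, a ligase of the RIG-I pathway, overlapped in pDC and was at 32.1 and 27.7, then at 39.8 and 42.8 CPM in cDC, without overlap. None of these 3 was called in either cell type.

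Genes that sense or process nucleic acids stood on both sides of vehicle in pDC. Adar, which edits adenosine in RNA, was at 133 and 123 CPM under vehicle and at 79.5 and 21.4 under panobinostat (-1.34 ± 0.55, adjusted p = 0.329; -0.74 without the second library). The cDC libraries were at 74.6 and 78.0, then at 100 and 106. Znfx1, a helicase that senses viral RNA, stood at 72.5 and 67.0 CPM in pDC under vehicle and at 23.8 and 1.77 under panobinostat (-2.43 ± 0.98, adjusted p = 0.323). The last value rests on 19 reads, and without that library the log2 fold change was -1.60. In cDC Znfx1 overlapped, at 113 and 103, then at 133 and 109.

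Pnpt1, a mitochondrial RNA-degrading enzyme, was at 38.2 and 29.8 CPM in pDC under vehicle, then at 28.7 and 11.5, while in cDC it overlapped. Ddx60, a helicase of the RIG-I pathway whose promoter stretch holds 2 separate matches, stood at 7.26 and 8.0 CPM in pDC under vehicle, at 5.35 in the first panobinostat library and at 28.9 in the second. Its log2 fold change of 1.16 was -0.56 without the second. Its cDC libraries were at 25.8 and 29.8, then at 31.4 and 45.7. Trex1, a DNA exonuclease, stood at 247 ± 78.7 and 376 ± 116 CPM in pDC and at 85.9 ± 12.2 and 117 ± 18.6 in cDC. Samhd1, which hydrolyses deoxynucleotides, stood at 260 ± 31.8 and 328 ± 65.6 in pDC and at 350 ± 87.0 and 471 ± 88.9 in cDC, with overlap in both. Isg20, an exonuclease, was at 15 and 17.5, then at 30 and 27.4 CPM in cDC (0.82 ± 0.45) and overlapped in pDC.

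Eif2ak2, the kinase PKR, overlapped in both cell types, with means of 73.9 and 76.4 CPM in pDC and 62.3 and 72.2 in cDC. Apobec3, a cytidine deaminase, was at 651 and 556 CPM in pDC under vehicle and at 716 and 656 under panobinostat (0.18 ± 0.24), and overlapped in cDC. None of the 9 genes of this role was called in either treatment comparison.

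**Figure D3:**
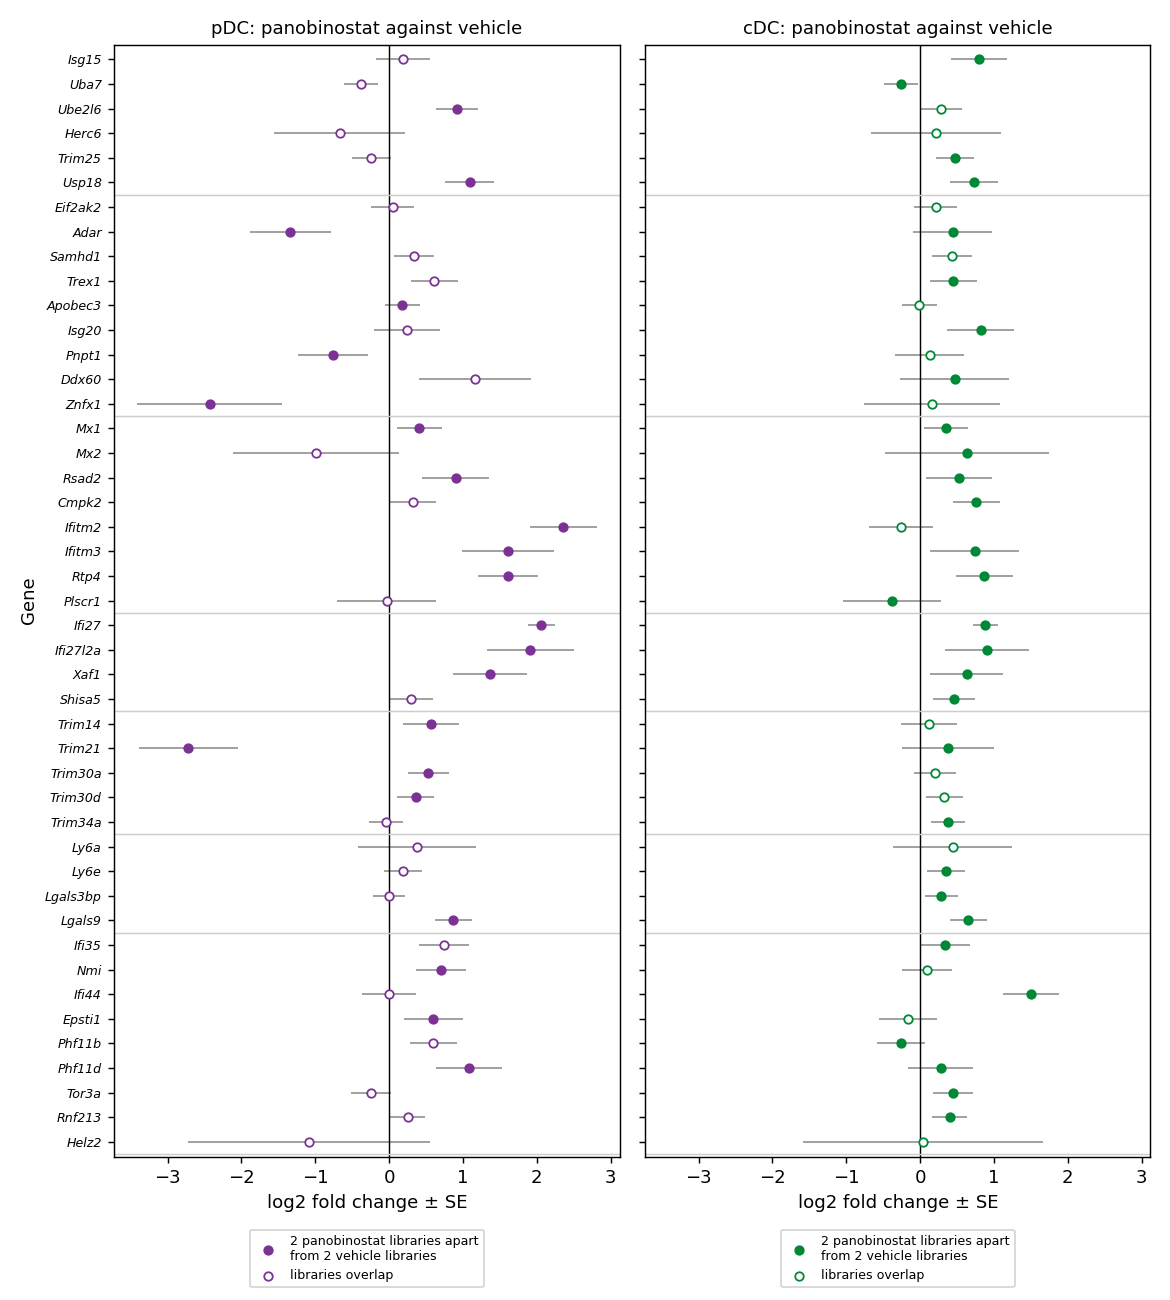
log2 fold changes of panobinostat against vehicle with standard errors, for the 45 genes in pDC (left) and cDC (right), in the order of their roles. Filled points mark genes whose 2 panobinostat libraries both lie above or both below the 2 vehicle libraries. In pDC the points spread from -2.72 (Trim21) to 2.36 (Ifitm2), and in cDC they lie closer together, with 39 of 45 above 0.

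Among TRIM proteins, Trim21, the cytosolic receptor for antibodies, had the largest negative log2 fold change of the 45 in pDC. It stood at 3.73 and 3.24 CPM under vehicle and at 0.496 and 0.557 under panobinostat, which are 74, 60, 10 and 6 reads (-2.72 ± 0.67, adjusted p = 0.189). Both treated libraries were low, and the log2 fold change was -2.85 without the second one. Of the alternatives that keep 2 libraries per group, DESeq2 alone called the decrease. In cDC Trim21 was at 2.61 and 3.69, then at 4.24 and 3.97. Trim30a, which limits inflammatory signalling, was at 195 and 232 CPM in pDC under vehicle and at 305 and 311 under panobinostat (0.53 ± 0.28, adjusted p = 0.418), and overlapped in cDC at 63.5, 105, 84.0 and 110. Its near copy Trim30d was at 101 and 108, then at 115 and 154 in pDC, and at 29.5 and 39.6, then 39.5 and 47.3 in cDC. The 2 transcripts share 5.98% and 6.39% of their 50-base words.

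Trim14, an adaptor of antiviral signalling, stood at 16.7 and 15.1 CPM in pDC under vehicle and at 23.0 and 24.2 under panobinostat, and overlapped in cDC. Trim34a was at 71.8 ± 9.38 and 69.7 ± 14.8 CPM in pDC, with overlap, and at 71.6 ± 4.06 and 93.3 ± 5.48 in cDC, without it. The TRIM genes thus split in pDC, with 3 above vehicle, Trim21 below it and Trim34a overlapping. No TRIM gene was called in either treatment comparison.

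Among the surface and secreted genes, Lgals9, the sugar-binding protein galectin-9, was at 190 and 174 CPM in pDC under vehicle and at 297 and 370 under panobinostat (0.87 ± 0.25, adjusted p = 0.226; 0.65 without the second panobinostat library). Lgals9 in cDC was at 68.8 and 46.9, then at 102 and 80.2 (0.65 ± 0.25, adjusted p = 1), with no overlap in either cell type. Ly6a, the stem cell antigen Sca-1, was at 599 and 1720 CPM in pDC under vehicle and at 846 and 2160 under panobinostat. In cDC it was at 27.2 and 87.3, then at 48.9 and 107. The second replicate was higher than the first by 2.87, 2.55, 3.21 and 2.19 times in the 4 groups, more than the fitted fold between treatments of either cell type, 0.38 ± 0.80 and 0.44 ± 0.81 on the log2 scale. Without the second pDC panobinostat library the value in pDC was -0.52.

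Ly6e, a membrane-anchored protein known for restricting coronaviruses, stood at 4190 ± 634 and 4780 ± 913 CPM in pDC and at 1320 ± 67.9 and 1680 ± 250 in cDC. The treatments overlapped in pDC alone. Lgals3bp, a secreted partner of galectin-3, was at 94.5 ± 13.9 and 94.3 ± 4.98 CPM in pDC and at 36.9 ± 2.08 and 45.2 ± 5.97 in cDC, with the same pattern of overlap. None of the 4 was called for treatment. Of the 45 genes, 19 were higher in replicate 2 than in replicate 1 in all 4 groups, and 3 (Znfx1, Plscr1 and Helz2) in none.

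The remaining genes include Ifi44 and the Phf11 pair. Ifi44, a cytosolic protein that restrains virus replication, was at 51.4 and 80.1 CPM in pDC under vehicle and at 58.0 and 73.8 under panobinostat. In cDC it was at 3.26 and 4.06, then at 8.53 and 12.2 (1.5 ± 0.38, adjusted p = 1), the largest log2 fold change of the 45 in that cell type. Its treated libraries lay between the untreated ones in pDC and above both in cDC.

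Phf11b and Phf11d are neighbouring PHD finger genes that share 15.6% and 3.82% of their 50-base words. Phf11d was at 15.6 and 26.0 CPM in pDC under vehicle and at 26.8 and 60.9 under panobinostat (1.08 ± 0.45, adjusted p = 0.340; 0.31 without the second panobinostat library), and at 66.2 and 75.6, then 79.9 and 91.9 in cDC. Phf11b overlapped in pDC, at 101 and 170, then at 161 and 249, and lay below vehicle in cDC, at 267 and 316, then at 238 and 248. The pair was therefore apart in opposite directions in cDC, and neither was called.

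Ifi35 and Nmi, which form a complex, stood at 175 ± 39.4 and 37.3 ± 14.8 CPM in pDC under vehicle and at 293 ± 133 and 60.8 ± 6.22 under panobinostat. Nmi did not overlap there and Ifi35 did, while in cDC it was Ifi35 that did not overlap. Epsti1 was at 133 ± 19.3 and 202 ± 57.5 CPM in pDC, without overlap, and overlapped in cDC. Tor3a, a torsin, overlapped in pDC and was at 116 ± 20.7 and 158 ± 26.7 in cDC. Rnf213, a very large ubiquitin ligase, showed the same pattern, with 56.3 ± 4.43 and 74.5 ± 3.80 CPM in cDC. Helz2, a helicase and transcriptional coactivator, was at 53.3, 45.4 and 46.0 CPM in the first 3 pDC libraries and at 0.0929 in the second panobinostat library, where it rests on 1 read, and its log2 fold change of -1.09 was -0.15 without that library. None of these genes was called.

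In pDC the gap between replicates went with exon length, under vehicle as under panobinostat. The difference between the 2 pDC panobinostat libraries, replicate 2 minus replicate 1 on the log2 scale, was taken for each of the 45 genes. Its Spearman rho with exon length was -0.43, against -0.25 over 13486 genes. The same rho was -0.48 in pDC under vehicle, -0.22 in cDC under vehicle and -0.068 in cDC under panobinostat. These are descriptions across genes of the same libraries. All 15 genes with the shortest exons (463 to 2321 bases) lay above 0 for panobinostat in pDC, with a median of 0.74. Of the 15 in the middle (2462 to 4335 bases) 8 did, with a median of 0.19, and of the 15 longest (4338 to 16888 bases) 9 did, with a median of 0.05. All genes within the same bounds had medians of 0.31, -0.11 and -0.37, and 61.7%, 45.5% and 33.5% of them lay above 0. In cDC the medians of the 45 were 0.45, 0.38 and 0.28, with 12, 14 and 13 above 0, and those of all genes 0, 0.02 and -0.01. The part of length in the pDC result was not tested.

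**Figure D4:**
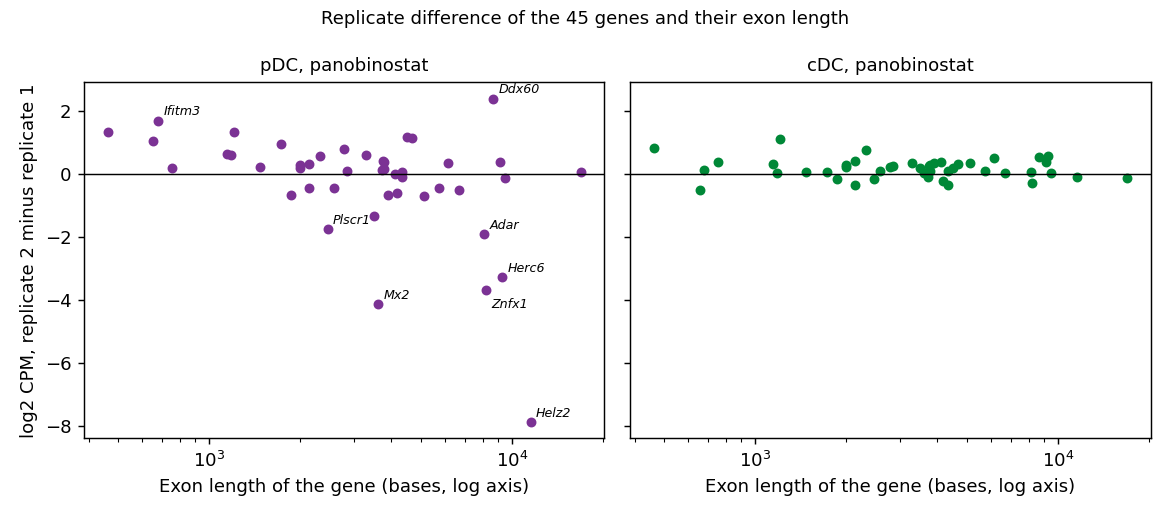
Difference in log2 CPM between replicate 2 and replicate 1 (vertical axis) against exon length in bases (log axis) for the 45 genes, 1 point each, in pDC under panobinostat (left) and cDC under panobinostat (right). On the left the points run from -7.86 (Helz2) to 2.41 (Ddx60), and on the right from -0.50 to 1.13.

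The next comparison set pDC against cDC under vehicle. All 4 surface and secreted genes, Ifi44 and the Trim30 pair were higher in pDC, and Ifitm2 and Rtp4 were lower. The test called 11 of the 45 genes, 9 higher and 2 lower, and 9.73% of all genes, 5.01% higher and 4.71% lower. Ly6a was 20.2-fold higher in pDC (4.34 ± 0.92, adjusted p = 0.0368) and Ifi44 17.9-fold (4.16 ± 0.42, adjusted p = 0.00345). Ly6e (3.17-fold), Lgals9 (3.15-fold), Trim25 (3.05-fold), Trim30d (3.03-fold), Trex1 (2.88-fold), Lgals3bp (2.56-fold) and Trim30a (2.53-fold) followed, with adjusted p from 0.0144 to 0.0370.

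Ifitm2 was 19.7-fold lower in pDC than in cDC (-4.30 ± 0.49, adjusted p = 0.00483) and Rtp4 11.7-fold lower (-3.55 ± 0.43, adjusted p = 0.00619). The pDC libraries did not overlap the cDC libraries for any of these 11. The genes that came next did not pass the threshold: Phf11d (-1.77 ± 0.46, adjusted p = 0.0637), Ifi27l2a (2.30 ± 0.59, 0.0639), Ifitm3 (-2.18 ± 0.63, 0.0852), Phf11b (-1.11 ± 0.32, 0.0857) and Usp18 (1.13 ± 0.33, 0.0897). The libraries of the 2 cell types were apart for 18 genes higher in pDC, against 35.1% of all genes, and for 13 lower, against 35.5%. At an unadjusted p under 0.05 edgeR picked 21 of the 45 and 24.5% of all genes.

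On the 4 vehicle libraries alone 21 genes were called, 13 of them higher, among 32.8% of all genes, and with the replicate number as a block 16 were, among 8.72%. Fits that leave out 1 library keep 1 in a group, so their calls are not counted here. The number of calls moved widely between them, in both directions. Over the 15 alternatives the log2 fold change ran from 3.35 to 5.41 for Ly6a and from 3.77 to 4.46 for Ifi44. It ran from -4.6 to -3.92 for Ifitm2 and from -3.93 to -3.27 for Rtp4.

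**Figure D5:**
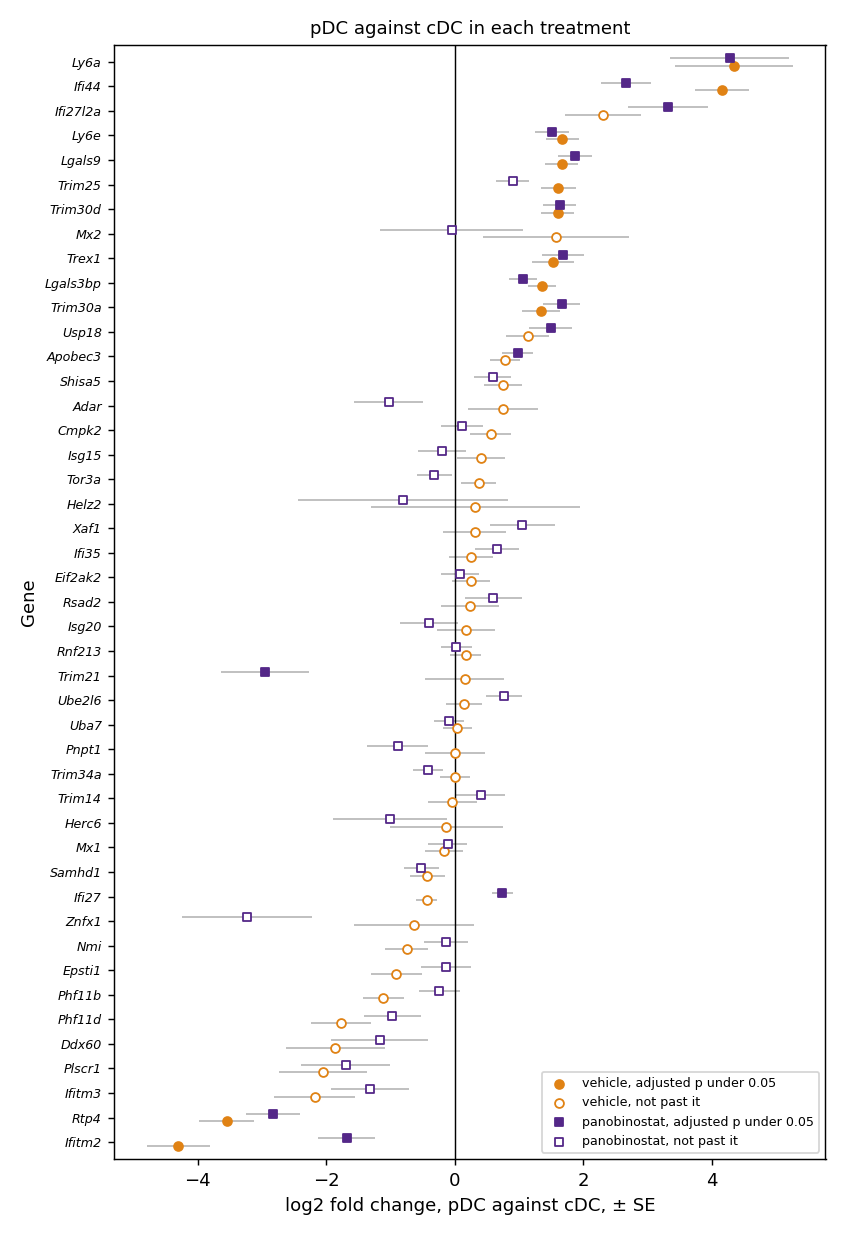
log2 fold changes of pDC against cDC with standard errors for the 45 genes, under vehicle (orange circles) and under panobinostat (purple squares), sorted by the vehicle value, with filled symbols for an adjusted p under 0.05. Ly6a and Ifi44 lie at the top, Rtp4 and Ifitm2 at the bottom, and Ifi27 moves from below 0 to above it.

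Under panobinostat 15 of the 45 genes were called between the cell types, 12 higher in pDC and 3 lower, and 18% of all genes, 7.76% higher and 10.2% lower. Of the 9 genes called higher under vehicle, 8 were called again, and Trim25 was not (0.90 ± 0.26, adjusted p = 0.0622). Ifi27l2a joined them at 9.92-fold (3.31 ± 0.62, adjusted p = 0.0192), as did Usp18 at 2.80-fold (1.49 ± 0.33, 0.0316), Apobec3 at 1.97-fold (0.98 ± 0.24, 0.0393) and Ifi27 at 1.66-fold (0.74 ± 0.17, 0.0352). Ifi27 had stood lower in pDC under vehicle, by -0.44 ± 0.17 (adjusted p = 0.178).

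Rtp4 remained lower in pDC (-2.82 ± 0.42, adjusted p = 0.00982), as did Ifitm2 (-1.68 ± 0.44, adjusted p = 0.0461), at 3.21-fold in place of 19.7-fold. Trim21 was lower in pDC by 7.73-fold (-2.95 ± 0.68, adjusted p = 0.0333). Blocking on the replicate number gave 14 calls among the 45, against 16.2% of all genes: Ifitm2 (edgeR's adjusted p = 0.0722) and Trim21 (0.0513) were no longer called, and Ube2l6 was (0.0361). The libraries were apart for 19 genes higher in pDC, against 24.7% of all genes, and for 13 lower, against 38%. At an unadjusted p under 0.05 edgeR picked 19 of the 45 and 34.8% of all genes. These comparisons share libraries with the treatment comparisons above, and the change in the gap between cell types is the difference tested there, which was not called for any of the 45. On the 4 panobinostat libraries alone none of the 45 was called by edgeR, and 1.21% of all genes were, 0.776% higher and 0.437% lower. Calls from fits that leave out 1 library, and so keep 1 in a group, are not counted here. Their number moved widely, in both directions. Mx2 was not called with all libraries. Its log2 fold change was -3.36 without the first pDC panobinostat library and 0.81 without the second.

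Levels were also divided by exon length, the union of a gene's GENCODE M21 exons. The length of the transcripts expressed here was not measured, so the order of genes is approximate. Per kilobase of exon, Ly6e had the highest mean of the 45 in pDC under vehicle (1110 CPM per kb) and in cDC under vehicle (349). Under panobinostat the highest were Ifi27l2a in pDC (2000) and Ifitm3 in cDC (577). Together the 45 genes took 0.946% and 1.12% of counts in pDC under vehicle and 1.09% and 1.26% under panobinostat. In cDC they took 0.563% and 0.587%, then 0.615% and 0.675%. The treated libraries overlapped the untreated ones in pDC and lay above them in cDC. The summed CPM of the 45 also overlapped in pDC, at 8660 and 11300 under vehicle and at 10700 and 15300 under panobinostat. With Ly6e and Ly6a left out together it did not overlap, and the 2 were not left out singly. It was then 4310 and 4980 in pDC under vehicle and 5730 and 7720 under panobinostat. In cDC it was 3790 and 4140, then 4500 and 5170.

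The rest of the interferon pathway was counted from 2 lists. Of 14 receptor and signalling genes (Ifnar1, Ifnar2, Ifngr1, Ifngr2, Jak1, Jak2, Tyk2, Stat2, Irf9, Socs1, Socs3, Irf1, Irf7 and Irf8) edgeR called none for panobinostat in either cell type. At an unadjusted p under 0.05 it picked 2 in pDC and 2 in cDC, against 14.9% and 1.45% of all genes, and 3 and 10 of the 14 lay above 0. Of 31 genes from the large induced families, none was called either, with 19 and 10 at an unadjusted p under 0.05, to be read against the same 14.9% and 1.45%. In that list 23 lay above 0 in pDC, with a median of 0.84, and 31 of 31 in cDC, with a median of 0.49. Between the cell types under vehicle, Ifnar1 (2.09 ± 0.18, adjusted p = 0.00224), Ifnar2 (2.39 ± 0.27, 0.00452) and Irf7 (2.74 ± 0.35, 0.00744), the factor that drives interferon alpha expression, were higher in pDC. The receptor genes for interferon gamma were lower there, Ifngr1 by -3.45 ± 0.25 (adjusted p = 0.00147) and Ifngr2 by -0.97 ± 0.20 (0.0329). Of the 31 induced genes 4 were called higher in pDC and 1 lower, against 5.01% and 4.71% of all genes.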

How the data were processed

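The authors deposited raw read counts per Entrez gene, with 1 column for each library. Columns marked D5W were taken as vehicle and those marked LBH as panobinostat, and 0 columns lacked a sample. Per the submitters' processing notes, bcl2fastq (2.17.1.14), FastQC (0.11.6), cutadapt (2.1), HISAT2 (2.1.0), featureCounts from Subread (2.0.0) and limma were used with mm10. Per the labels' protocols, libraries came from the NEBNext Single Cell/Low Input kit. For strandedness, annotation and multi-mapping reads the settings were not given in the sources used here, so near copies and overlapping genes are uncertain. No molecular identifiers are named in the labels. The labels call the replicates biological.

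Symbols came from the RefSeq table of GRCm38.p6 (25275 of 27179 IDs, 92.99%), exon lengths from the union of GENCODE M21 exons. Genes passing filterByExpr (minimum count 10, total 15) were tested in R (4.3.3) with edgeR (4.0.16): TMM, 1 coefficient per group, all 8 libraries (4 residual and 2.3 prior degrees of freedom), quasi-likelihood F test, Benjamini-Hochberg adjustment. Standard errors derive from the F statistic. log2 CPM used a prior count of 2. The pipeline was tested on simulated data. The 15 alternatives were RLE scaling, library size only, no filter, DESeq2 (1.42.0), limma-voom (limma 3.58.1), the 4 libraries compared alone, a replicate block, and leaving out each library.

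The genes, lists and tests were chosen with earlier results of these data known. Genes given with the value of every library were those called in a comparison (at most 12, by p), the 6 with the smallest p where fewer were called, and a set of canonical members and near copies (Isg15, Mx1, Mx2, Rsad2, Usp18, Ifi27, Ifi27l2a, Ifitm2, Ifitm3, Ly6a, Trim30a, Trim30d, Phf11b and Phf11d), and others were added after values were seen. Every group has replicates 1 and 2 in the labels, and deviations of same-numbered libraries from their group means correlated at 0.15 to 0.49 in the 6 pairs of groups. This check across genes does not establish that the numbers pair the libraries. The fit reported has no replicate term, and the block is 1 of the alternatives. The labels do not say what a number shares. In the interferon pathway, 1 gene of the receptor and signalling list is not reported here, and the counts of that list leave it out.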

Additional observations from a re-analysis of the deposited data

Results flagged for a closer look

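For 2 genes every panobinostat library of one cell type moved one way and every library of the other cell type the opposite way. Adar lay below vehicle in both pDC panobinostat libraries and above it in both cDC ones, and the difference of the effects, pDC minus cDC, was -1.78 on the log2 scale. Trim21 showed the same pattern, with a difference of -3.10. The difference was tested with edgeR and was called for neither, at adjusted p = 0.660 for Adar and 0.443 for Trim21. With DESeq2 that of Trim21 was called. The share of all genes whose libraries moved in opposite ways was not counted.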

How the results depend on the processing

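For panobinostat in pDC, 1 of the 45 genes was called, and the count was 0 with RLE scaling, 0 with limma-voom, 0 on the 4 libraries alone, 0 with the replicate block and 5 with DESeq2 (Ifitm2, Rtp4, Ifi27, Ifi27l2a and Trim21). In cDC it was 0, and 1 with DESeq2. For the difference it was 0, and 3 with DESeq2. For pDC against cDC under vehicle it was 11, and 17 with DESeq2, 21 on the 4 libraries alone and 16 with the replicate block. Under panobinostat it was 15, and 0 on the 4 libraries alone. The share of all genes called moved with the setting too. On the 4 libraries alone it was 32.8% under vehicle, against 9.73% with all 8. Under panobinostat these shares were 1.21% and 18%. The counts in this paragraph are to be read against such shares, which for DESeq2 are given above for cDC only. Leaving out 1 library at a time gave 0 to 20 for pDC, 0 to 0 for cDC, 0 to 14 for the difference, 1 to 25 under vehicle and 0 to 29 under panobinostat. The replicate block ended the call of Ifi27 in pDC and added 5 calls under vehicle. Under panobinostat it ended those of Ifitm2 and Trim21 and added that of Ube2l6. The cause of these changes was not tested. The log2 fold change of Mx2 between the cell types under panobinostat had opposite signs without the first and without the second pDC panobinostat library. Scaling by library size alone moved the median of all genes from -0.14 to -0.28 in pDC and from 0 to -0.13 in cDC, with the median of the 45 at 0.16 and 0.25, so the median of the 45 stayed above that of all genes. RLE scaling moved that median from 0.02 to -0.11 under vehicle. With 2 pooled libraries per group, and values of Trim21, Helz2, Znfx1 and Mx2 that rest on 1 to 19 reads in a pDC panobinostat library, differences of moderate size may not have been detectable.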
